A study of Mus musculus with 4 samples.

Results

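Basophil and mast cell progenitors were rare among the sorted bone marrow cells: 204 of the 11764 deposited cells were chosen, 117 in the B-ALL environment and 87 in the PBS control. A cell was chosen when it held no fewer unique molecular identifiers (UMIs, counted RNA molecules) in total than the shallowest PBS control cell, at least 1 UMI of Ms4a2 and at least 1 UMI of Gzmb or Fcer1a. The choice used measured values of these 3 genes, so their levels in the chosen cells are a description and support nothing. Recipients in both groups were Wt CD45.1 mice, and all cells came from a KIT+Lin-CD45.2-CD45.1+ sort of marrow made after 3 weeks. In the B-ALL environment (B-cell acute lymphoblastic leukemia) the recipients had been given 150000 primary tumor cells through the tail vein, taken from the lymph node of 1 Cd45.2+/+Ebf1+/-Pax5+/- donor with leukemia, and in the PBS control they had been given phosphate-buffered saline instead. The leukemia therefore stems from 1 donor mouse, and the ages of the recipients are not given in the sources used here. Each group has 2 labelled samples, which the cell names do not tell apart, and the group was therefore treated as a single sample. Hence no p-value can be given. Every interval below is a 95% interval for counting error only, which leaves out the spread between cells and between mice.

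Basophils and mast cells are granulocytes of allergic and antiparasite responses, and both display the high-affinity receptor for IgE, whose alpha chain is the product of Fcer1a, whose beta chain is that of Ms4a2 and whose gamma chain is that of Fcer1g. Their progenitors arise from KIT-positive marrow cells under the transcription factor GATA2, and they store proteases, histamine and proteoglycan in granules. In mice Mcpt8 is a protease of basophils, whereas Cpa3, the carboxypeptidase A3 gene, is used by progenitors of both lineages, and integrin beta 7, from Itgb7, serves the homing of mast cell progenitors to tissues.

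The proximal promoters of the receptor chains and of Cpa3 are shown because these genes define the cells and because GATA factors act on the lineage. Each is the RefSeq window of 300 bases on GRCm38.p6 that ends 50 bases after the start, read 5' to 3' on the gene's strand, with capitals on every GATA match, which is the letters GATA preceded by A or T and followed by A or G, on either strand. The window of Ms4a2 is chr19:11623670-11623969, that of Fcer1a chr1:173227180-173227479 and that of Cpa3 chr3:20242132-20242431, all on the minus strand.
Ms4a2: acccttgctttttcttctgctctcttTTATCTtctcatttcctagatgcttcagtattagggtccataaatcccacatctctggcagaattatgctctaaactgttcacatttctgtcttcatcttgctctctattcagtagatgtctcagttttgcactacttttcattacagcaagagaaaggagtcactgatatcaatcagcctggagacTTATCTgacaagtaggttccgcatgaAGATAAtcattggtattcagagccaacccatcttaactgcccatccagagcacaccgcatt
Fcer1a: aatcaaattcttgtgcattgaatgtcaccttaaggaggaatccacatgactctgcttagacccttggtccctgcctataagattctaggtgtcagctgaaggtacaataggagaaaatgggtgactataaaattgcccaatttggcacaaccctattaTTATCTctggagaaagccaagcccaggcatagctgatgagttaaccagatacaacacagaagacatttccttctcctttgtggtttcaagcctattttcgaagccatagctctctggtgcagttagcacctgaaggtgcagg
Cpa3: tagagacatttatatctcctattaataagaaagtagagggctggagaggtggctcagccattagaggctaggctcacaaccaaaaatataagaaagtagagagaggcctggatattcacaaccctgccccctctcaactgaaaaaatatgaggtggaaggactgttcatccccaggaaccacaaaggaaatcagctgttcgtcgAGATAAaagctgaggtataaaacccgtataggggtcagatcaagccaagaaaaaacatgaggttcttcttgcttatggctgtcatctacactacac
Ms4a2 had 3 matches, Fcer1a 1 and Cpa3 1, while the windows of Gzmb and Gata2 had 0. Of 32851 RefSeq promoter windows of this length, 29.8% held at least 1 match, so a match is common and is a description of letters, not of binding.

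The label was checked on defining markers, of which 11 of 12 listed were measured, 8 of them not used by the rule. These 8 markers summed to 4194 CPM (UMIs scaled to the same total in each group) in members of the B-ALL environment and 4169 CPM in members of the PBS control. In the remaining cells they came to 1620 CPM in the B-ALL environment and 1620 CPM in the control. Most of that was Srgn, at 1430 CPM in the B-ALL environment and 1355 CPM in the control. It was found in 99.8% of the remaining cells of either group, so it is not particular to this lineage. Among genes that played no part in the choice, Lmo4 (LIM domain factor), Scin (the actin-severing protein scinderin), Csrp3, Rnase12, Gata2, Ikzf2 (Helios) and Slc18a2 (the vesicular transporter that loads histamine) led the members over the other cells. The log2 ratio of members over other cells, with 10 CPM added to both, was 3.47 in the B-ALL environment and 3.73 in the PBS control for Lmo4, 4.85 and 3.06 for Csrp3, 3.27 and 4.32 for Scin, and 3.28 and 3.16 for Rnase12. For Cpa3 it was 3.73 in the B-ALL environment and 3.06 in the control, for Gata2 2.39 and 2.33, for Ikzf2 2.17 and 2.22, and for Slc18a2 2.22 and 2.45, in that order. In both groups alike, 90 of 6658 genes with at least 50 UMIs in members (1.35%) were at least 2-fold higher in members than in other cells and 11 (0.165%) at least 2-fold lower. The lowest against the other cells were F13a1, Ly6c2, Irf8, Ighm and Ly86, genes of monocytes and B cells, each at no more than 22 UMIs in the members of either group.

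Summed levels of mast cell, basophil and eosinophil markers were low beside those of the progenitor markers above. Only 3 of 11 listed mast cell markers were measured, and they summed to 75.1 CPM in members of the B-ALL environment and 156 CPM in members of the PBS control, beside 15.7 and 17.5 CPM in the other cells in the same order. Of 10 basophil markers 9 were measured, and without Fcer1a, which the rule used, the other 8 summed to 321 CPM in the B-ALL environment and 240.0 CPM in the control. In the other cells these 8 came to 101 CPM in the B-ALL environment and 123 CPM in the control. The chemokine gene Ccl3 was at 0 UMIs in members of both groups. Of 8 eosinophil markers 3 were measured, at 51.2 CPM in the B-ALL environment and 48.3 CPM in the control. Prg3 was found as 18 UMIs in 1 cell of the B-ALL environment. Neutrophil progenitor markers, 8 of 9 measured, summed to 4699 CPM in members of the B-ALL environment and 3006 CPM in those of the control, and the 8 megakaryocyte markers to 728 and 439 CPM in the same order. The 4699 CPM of neutrophil progenitor markers lay above the 4194 CPM of the 8 basophil and mast cell progenitor markers not used by the rule. In the other cells the neutrophil progenitor markers came to 7495 CPM in the B-ALL environment and 10876 CPM in the control. The megakaryocyte markers came to 787 and 571 CPM there in the same order. Fcnb was at 0 in members of both groups, as was Ppbp. T and NK cell markers, 4 of 9 measured, summed to 418 CPM in members of the B-ALL environment and 564 CPM in those of the control. That was above the 252 and 327 CPM of the other cells, though Trbc2 and Klrb1c were at 0 in members. Erythroid markers summed to 593 and 824 CPM in members, below 1291 and 1933 CPM in the other cells. Sums of the monocyte progenitor, lymphoid-primed, HSC and B cell lists were lower in members than in the other cells. At least 10 UMIs of Elane (neutrophil elastase) or Pf4 (platelet factor 4) were carried by 17 of 117 members of the B-ALL environment and 1 of 87 of the control, and the median depth of those 17 cells was 19683 UMIs. Their part in the results below was not tested beyond values given without them.

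**Figure D1:**
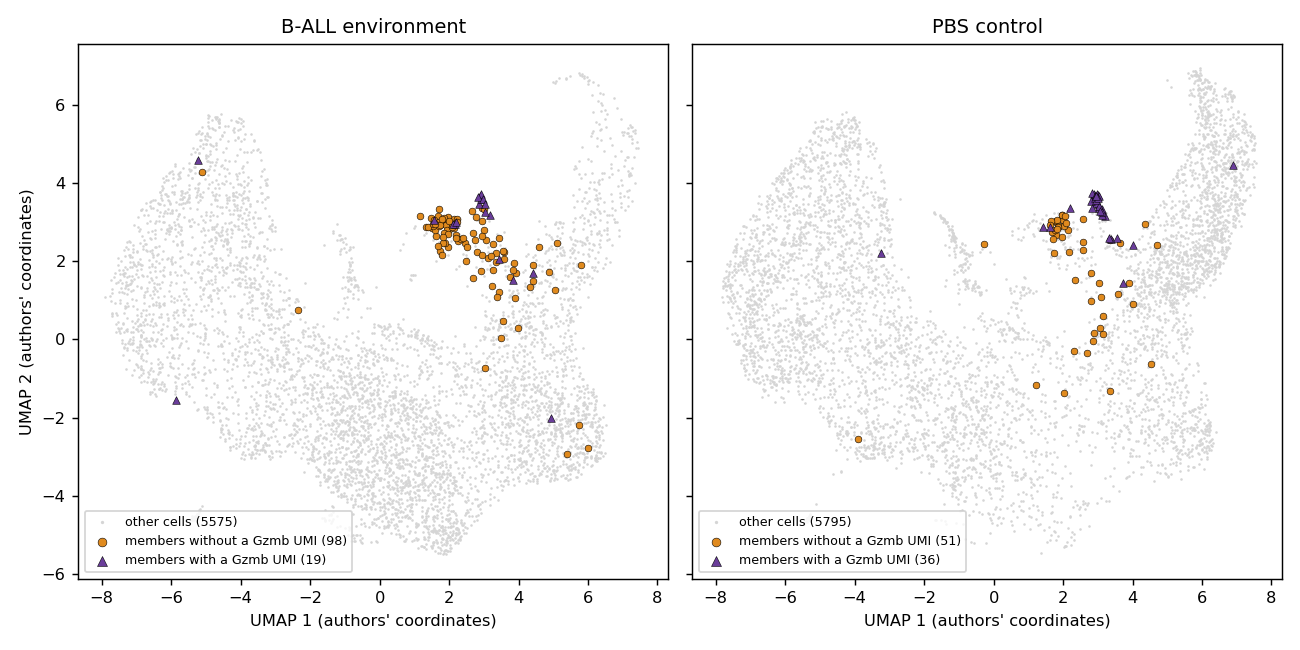
Position of the chosen cells on the authors' 2-dimensional UMAP (both axes in arbitrary units), B-ALL environment left and PBS control right. Grey points are the other cells at or above the minimum depth of the choice, orange circles members without a Gzmb UMI (98 in the B-ALL environment, 51 in the PBS control) and purple triangles members with one (19 and 36 in the same order). Most members lie near UMAP 1 of 2 to 4 and UMAP 2 of 2 to 4 in both groups, with a few scattered across the map.

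On the authors' map, a median of 36.7% of the 30 nearest neighbours of a member were members themselves in the B-ALL environment, and 40% in the PBS control. No neighbour was a member for 17 members of the B-ALL environment and 9 of the control. Of all barcodes, 18 occurred in both groups, which involved 1 member.

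Depth differed between the groups within the members. Members had a median of 9495 UMIs in the B-ALL environment (3216 to 38259 per cell, 1424527 in all) and 6890 in the PBS control (3667 to 30911, 704307 in all). Other cells had medians of 10765 UMIs in the B-ALL environment and 10266 in the control. Because a deeper cell shows a rare gene more often, shares are also given with every cell thinned at random to the minimum depth of the choice. Mitochondrially encoded RNA made up 5.01% of the UMIs of members in the B-ALL environment and 3.25% in the control, and 5.14% and 3.56% of those of the other cells in the same order.

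Members were 2.06% of the cells at or above that depth in the B-ALL environment (117 of 5692, exact Clopper-Pearson interval 1.70 to 2.46%) and 1.48% in the PBS control (87 of 5882, 1.19 to 1.82%), a ratio of shares of 1.39 (1.04 to 1.86). With every cell thinned before the choice, 61 B-ALL environment cells and 48 control cells were chosen, and the interval of the ratio, 1.31 (0.885 to 1.96), included 1. When only cells at or above 10189 UMIs were kept, the median of control cells, the ratio was 2.76 (1.61 to 4.93), with 54 B-ALL environment cells and 19 control cells. Without the members rich in Elane or Pf4 it was 1.20 (0.892 to 1.62), an interval that also includes 1.

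The direction of this share depended on the second gene asked for beside Ms4a2. With Fcer1a alone as the partner, 108 cells of the B-ALL environment and 61 of the PBS control were chosen, a ratio of 1.83 (1.32 to 2.55). With Gzmb alone as the partner the numbers were 19 in the B-ALL environment and 36 in the control, a ratio of 0.545 (0.296 to 0.976). With Cpa3 as the partner they were 170 and 334 in that order, a ratio of 0.526 (0.435 to 0.635), and 0.476 (0.371 to 0.606) after thinning. Ms4a2 by itself was found in 4.80% of B-ALL environment cells (273) and 7.77% of control cells (457), a ratio of 0.617 (0.529 to 0.719). Cells with Cebpe and Elane that were not members, of the neutrophil lineage and more deeply counted, gave a background. Ms4a2 had a UMI in 7.79% of them in the B-ALL environment and 6.13% in the control. The share for Ms4a2 alone lay below this background in the B-ALL environment and above it in the control. No difference is read from these shares. For Fcer1a this background was 0.557% in the B-ALL environment and 0.106% in the control. Among all cells that were not members, Fcer1a had a UMI in 2.03% in the B-ALL environment and 0.794% in the control. Among those with at least 1 UMI each of Gata2 and Mfsd2b it had one in 6.59% and 1.39% in the same order. Higher Fcer1a in the B-ALL environment was therefore not particular to members. Cells with Ms4a2 but neither partner, just outside the choice, numbered 156 in the B-ALL environment and 370 in the control. Of these, 61 in the B-ALL environment and 194 in the control had at least 2 UMIs of Ms4a2. A UMI of Cpa3 was found in 70 and 252 of them in the same order. Cells with Gzmb or Fcer1a but no Ms4a2 numbered 155 in the B-ALL environment and 71 in the control. Just inside it, 14 members of the B-ALL environment and 18 of the control had exactly 1 UMI of Ms4a2, and 6 members of each group met the rule with the fewest possible UMIs.

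**Figure D2:**
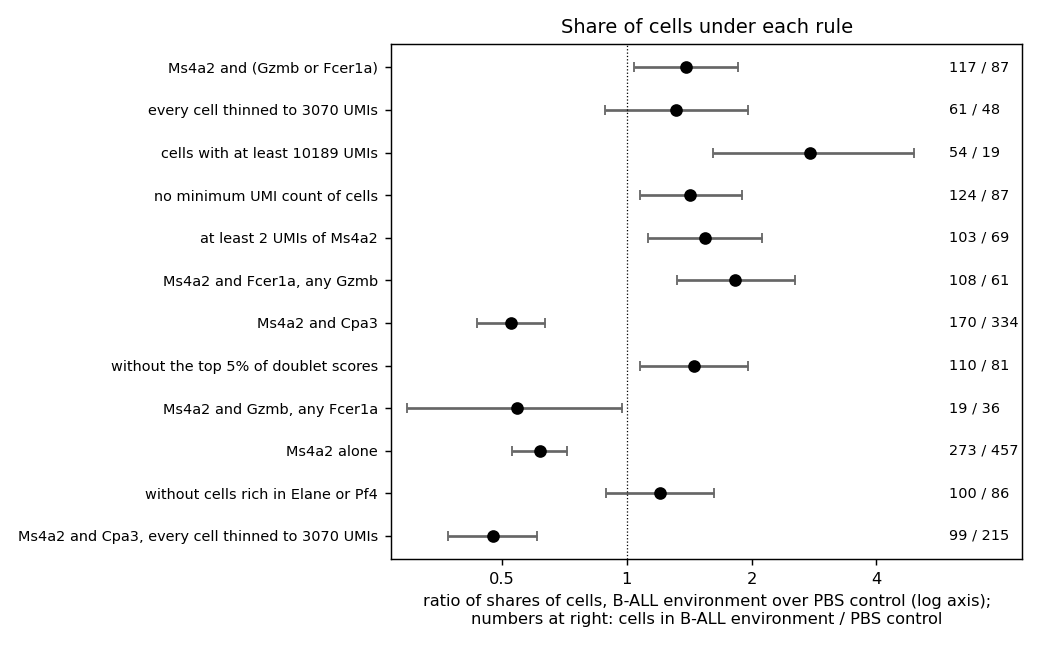
Ratio of the share of chosen cells, B-ALL environment over PBS control (log axis), for each rule tried, with exact 95% intervals for counting error and, at the right, the numbers of cells chosen in each group. Ratios for rules with Fcer1a as a partner lie above 1, and those for Ms4a2 with Cpa3, with Gzmb or alone lie below 1.

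The members fell into an arm with and an arm without a Gzmb UMI, a division added after the values were seen. Gzmb, for the serine protease granzyme B, was found in 19 of 117 members of the B-ALL environment (16.2%, 10.1 to 24.2%) and 36 of 87 of the PBS control (41.4%, 30.9 to 52.4%). After thinning the shares were 16.4% of 61 cells and 43.8% of 48 cells in the same order. Fcer1a without Gzmb was found in 98 members of the B-ALL environment and 51 of the control, Gzmb without Fcer1a in 9 and 26, and both genes in 10 and 10. Cells that should lack Gzmb gave the background: it had a UMI in 0.186% of cells with Cebpe and Elane in the B-ALL environment and 0.106% in the control, cells of the neutrophil lineage with median depths of 21095 and 15423.5 UMIs.

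The arm with Gzmb carried genes that the arm without it held at far lower levels, in both groups. Across both groups alike, 29 of 6658 genes (0.436%) were at least 2-fold higher with Gzmb than without it and 19 (0.285%) at least 2-fold lower. Scin stood at 603 CPM with Gzmb and 54.9 CPM without it in the B-ALL environment, and at 1333 and 71.7 CPM in the PBS control. Itgb7 stood at 89.3 CPM with Gzmb and 14.1 CPM without it in the B-ALL environment, and at 247 and 34.8 CPM in the control. Also higher with Gzmb in both groups were Hes1 (a Notch target gene), Cx3cr1 (the fractalkine receptor), Gpr183 (a receptor for oxysterols), Cd24a and Ahnak. In the B-ALL environment Hes1 and Ahnak rested on few UMIs. Hes1 had 11 UMIs in 4 cells with Gzmb and 1 UMI without it. Ahnak had 11 UMIs in 5 cells with Gzmb and 8 UMIs in 8 cells without it. The arm without Gzmb was higher in Rnase12, at 131 CPM without and 17.9 CPM with Gzmb in the B-ALL environment and 169 and 20.6 CPM in the control. Slc7a8 (an amino acid transporter), Trip13, Dach1 and Gp9 were higher in it too. The 2 arms are named here for Gzmb only, since most mast cell markers were not measured.

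**Figure D3:**
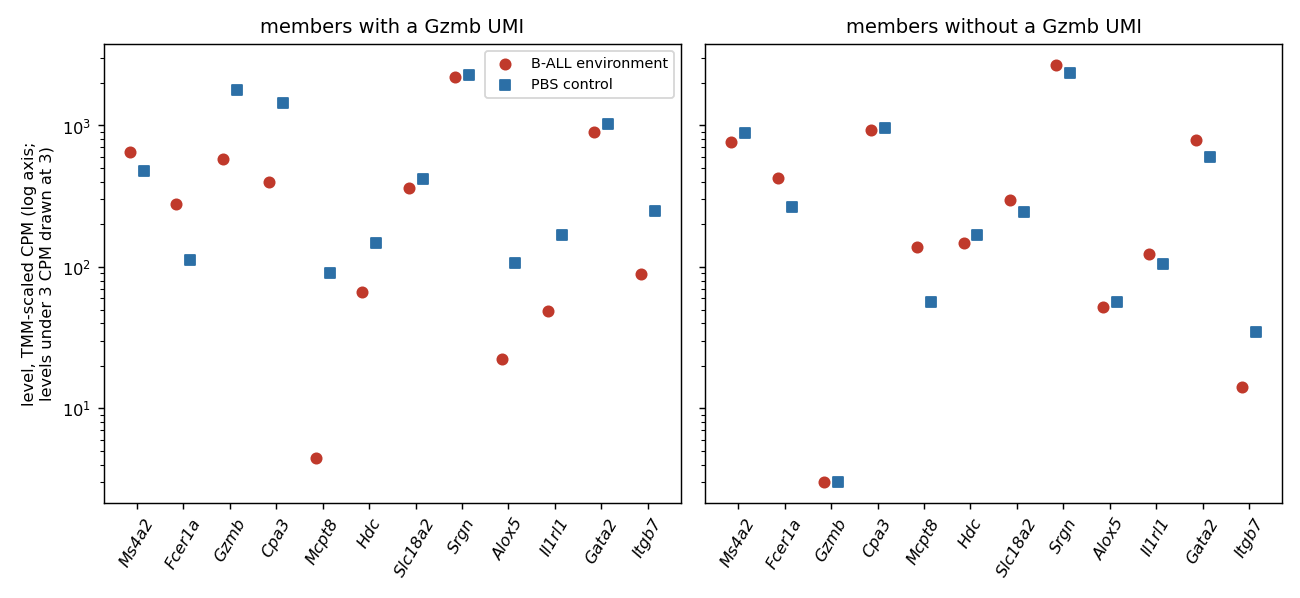
Level of 12 lineage genes (CPM after TMM scaling, log axis) in members with a Gzmb UMI (left) and without one (right). Red circles are the B-ALL environment and blue squares the PBS control, each the sum over the cells of 1 arm. Gzmb is 0 at the right by choice and drawn at 3 CPM, and Itgb7 is higher at the left in both groups.

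Within the members, UMIs were summed per group, scaled by TMM and compared as a log2 fold, B-ALL environment over PBS control. A gene was called when it had at least 50 UMIs over both groups and differed at least 2-fold. Of 6658 such genes, 96 (1.44%) were higher in the B-ALL environment and 81 (1.22%) lower. The counting interval excluded 0 for all of these, which the filter and the 2-fold limit nearly ensured, so it adds no support. Among the other cells, which hold far more UMIs, 956 of 13750 genes (6.95%) were higher and 533 (3.88%) lower. Of the 96 higher genes 13 were also at least 2-fold higher in the other cells, and of the 81 lower genes 29 were at least 2-fold lower there. The median fold over all genes was 0.00. The shares called in members, 1.44% higher and 1.22% lower, are the background for the calls in each gene list below. A list of few genes with 0 calls lies near that background.

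Of the receptor for IgE, the beta chain gene Ms4a2 stood at 744 CPM in the B-ALL environment (1060 UMIs) and 739 CPM in the PBS control (521 UMIs), a log2 fold of 0.01 (-0.14 to 0.16). Fcer1a, the alpha chain, stood at 400 CPM in the B-ALL environment and 211 CPM in the control, a log2 fold of 0.92 (0.66 to 1.19). Both were fixed in part by the choice of cells, and Fcer1a had a log2 fold of 1.70 in the other cells. Fcer1g, the gamma chain shared with other Fc receptors, was at 185 CPM in the B-ALL environment and 318 CPM in the control, a log2 fold of -0.78 (-1.05 to -0.52), and at 0.27 among members without Gzmb. Of 16 tested genes of the receptor and its signalling, 1 was called higher (Gab2, a scaffold protein, at 1.04) and 1 lower (Lat2, an adaptor, at 70.2 CPM in the B-ALL environment and 141 CPM in the PBS control), with a median of 0.03. After thinning the log2 fold of Lat2 was 0.0081.

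Granule genes differed little apart from Gzmb. Gzmb was at 90.6 CPM in the B-ALL environment (129 UMIs) and 617 CPM in the PBS control (435 UMIs), a log2 fold of -2.77 (-3.06 to -2.48). Within the arm that carried it, Gzmb stood at 576 CPM in the B-ALL environment and 1789 CPM in the control. Cpa3 stood at 850 CPM in the B-ALL environment and 1121 CPM in the control, a log2 fold of -0.40 (-0.53 to -0.27), which was -1.85 in the arm with Gzmb and -0.04 in the arm without it. Mcpt8 was at 118 CPM in the B-ALL environment and 68.1 CPM in the control, a log2 fold of 0.79 (0.32 to 1.29), but 1 cell of the B-ALL environment held 81 of the 168 UMIs found there. It was found in 17.1% of members of the B-ALL environment and 13.8% of those of the control, and in 50.1% and 41.2% of cells with Cebpe and Elane in the same order, so it did not mark members apart from neutrophil progenitors. None of 13 granule genes was called, and their median was -0.22, but 0.07 after thinning. Hdc, the enzyme that makes histamine, stood at -0.26 (-0.60 to 0.08), Slc18a2 at 0.02 (-0.22 to 0.26) and Srgn, the granule proteoglycan serglycin, at 0.18 (0.10 to 0.26). Of 6 tested proteases only Gzmb was called, and its level, like its share of members, was fixed in part by the choice of cells. Among all cells at or above the minimum depth, Gzmb was found in 65 of the B-ALL environment (1.14%) and 62 of the control (1.05%). In the other cells its log2 fold was 0.51 (0.09 to 0.94).

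Of 12 tested cytokine and growth factor receptors 0 were called, with a median of -0.22 over all members and 0.14 in the arm without Gzmb. Kit, the receptor of stem cell factor, by which the cells were sorted, stood at 259 CPM in the B-ALL environment and 504 CPM in the PBS control, a log2 fold of -0.96 (-1.17 to -0.74) beside -0.85 in the other cells. Csf2rb, the beta chain shared by the receptors of IL-3, IL-5 and GM-CSF, stood at 202 CPM in the B-ALL environment and 118 CPM in the control. Its log2 fold was 0.77 (0.42 to 1.15), beside 1.12 in the other cells. Il1rl1, the IL-33 receptor, was at 112 CPM in the B-ALL environment and 126 CPM in the control, a log2 fold of -0.17 (-0.55 to 0.22), whereas its fold in the other cells was -1.70. Csrp3 likewise had a fold of 0.33 (0.16 to 0.51) in members and -2.02 in the other cells. Among cells with Gata2 and Mfsd2b that were not members, the folds were -1.29 for Il1rl1 and -1.99 for Csrp3. The other cells include the cells with Ms4a2 that met no second condition, which were fewer in the B-ALL environment, as given above. Their part in the folds of the other cells was not tested.

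Among transcription factors of the lineage, Gata2, Ikzf2 and Cebpa were close to equal between the groups. Gata2 stood at 806 CPM in the B-ALL environment and 745 CPM in the PBS control (log2 fold 0.11, -0.04 to 0.26), Ikzf2 at 598 and 544 CPM in the same order (0.14, -0.04 to 0.31), and Cebpa, which is needed for basophil fate, at 110 and 99.3 CPM (0.15, -0.26 to 0.58). Of 20 tested factors, Id1 was called higher, at 1.34, and Id2 lower, at -3.58, both inhibitors of basic helix-loop-helix factors. The median of the list was 0.12, with 13 factors above 0 and 7 below. It was 0.07 over 19 tested factors in the arm without Gzmb and -0.24 over 13 in the arm with it. Id2 had 13 UMIs in 7 B-ALL environment cells and 77 UMIs in 17 control cells, of which 75 lay in the arm with Gzmb. In the arm without Gzmb its UMIs were 7 in the B-ALL environment and 2 in the control, a log2 fold of 0.42 (-1.97 to 3.72).

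The genes with the highest folds included inhibitors of NF-kB signalling. Nfkbia, for the inhibitor IkB-alpha that NF-kB itself induces, stood at 553 CPM in the B-ALL environment (787 UMIs in 103 of 117 cells) and 101 CPM in the PBS control (71 UMIs in 40 of 87 cells). Its log2 fold was 2.46 (2.10 to 2.83), with 2.55 in the arm without Gzmb, 1.88 in the arm with it and 0.94 in the other cells. After thinning it was found in 68.4% of members of the B-ALL environment and 20.7% of those of the control. Tnip3, for a protein that binds the deubiquitinase A20, had 115 UMIs in 41 B-ALL environment cells and 1 UMI in the control, a ratio of 56.9 (10.0 to 2267), beside a log2 fold of 2.07 in the other cells. Zc3h12a, for the RNase Regnase-1 that degrades inflammatory transcripts, had 81 UMIs in 45 B-ALL environment cells and 7 UMIs in 6 control cells, a log2 fold of 2.52 (1.41 to 3.88), beside 0.38 in the other cells. Tnfaip3, the gene of A20, stood at 49.9 CPM in the B-ALL environment and 24.1 CPM in the control, a log2 fold of 1.05 (0.27 to 1.90), with 2.01 in the arm without Gzmb and -0.34 in the arm with it. Over the whole NF-kB and TNF list, 2 of 9 tested genes were called higher and 0 lower, beside 1.44% and 1.22% of all tested genes. The median of the list was 0.07, and Jun stood at -0.97. The median was 0.60 over 7 tested genes in the arm without Gzmb and 0.40 after thinning. Its median in the other cells was 0.72 over 18 genes. Among cells with Gata2 and Mfsd2b that were not members, Nfkbia, Tnip3, Zc3h12a and Tnfaip3 had log2 folds of 1.68, 2.97, 1.21 and 1.15. The median of the list there was 0.72 over 17 genes. In cells with Cebpe and Elane the folds of these genes were -0.01, 0.52, -0.14 and 0.09 in the same order. In cells with at least 2 UMIs of Pf4 and 1 of Gp1bb that were not members, they were 0.15, 1.27, -0.63 and -1.28. Of these intervals only that of Tnip3 excluded 0. Higher levels of Nfkbia, Tnip3, Zc3h12a and Tnfaip3 were therefore shared with the cells with Gata2 and Mfsd2b.

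The promoters of Nfkbia and Tnip3 are shown because these genes had among the highest folds and NF-kB is known to act on Nfkbia. Windows are as above, chr12:55492598-55492897 on the minus strand for Nfkbia and chr6:65590148-65590447 on the plus strand for Tnip3, a start that lies within the longer GENCODE span of the gene. Capitals mark the kappa-B motif, searched as GGGA, any 2 bases and then TTCC or TCCC, on either strand.
Nfkbia: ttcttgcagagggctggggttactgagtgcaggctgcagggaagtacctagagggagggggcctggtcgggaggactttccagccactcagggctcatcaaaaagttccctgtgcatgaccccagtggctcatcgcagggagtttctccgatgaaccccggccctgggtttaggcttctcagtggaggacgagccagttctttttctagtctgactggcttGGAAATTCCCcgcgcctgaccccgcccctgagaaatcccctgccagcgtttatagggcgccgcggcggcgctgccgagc
Tnip3: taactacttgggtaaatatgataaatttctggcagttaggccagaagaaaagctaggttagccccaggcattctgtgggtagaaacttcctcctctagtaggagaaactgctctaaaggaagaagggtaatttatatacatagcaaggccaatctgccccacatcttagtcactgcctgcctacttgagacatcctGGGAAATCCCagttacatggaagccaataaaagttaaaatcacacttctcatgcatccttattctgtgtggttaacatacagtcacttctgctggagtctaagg
Each held 1 match. Such letters occurred in 2.12% of the 32851 windows, and the windows searched of Zc3h12a, Serpina3g and Ebi3 and both windows of Tnfaip3 had 0 matches, which bears on these letters in these windows only.

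Of the interferon list, 2 of 14 tested genes were called higher and 0 lower, with a median of 0.07. Over all tested genes in members, 1.44% were called higher and 1.22% lower. Serpina3g, for a serine protease inhibitor, stood at 320 CPM in the B-ALL environment (77 of 117 cells) and 29.8 CPM in the PBS control (14 of 87 cells), a log2 fold of 3.43 (2.80 to 4.13) beside 3.13 in the other cells. Ifitm3 stood at 1.22 (0.96 to 1.50) beside 1.39 in the other cells. Ifitm1 stood at 3575 CPM in the B-ALL environment and 1817 CPM in the control, a log2 fold of 0.98 (0.89 to 1.07) in members and 3.02 in the other cells. The log2 ratio of members over other cells for Ifitm1 was 0.62 in the B-ALL environment and 2.66 in the control.

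**Figure D4:**
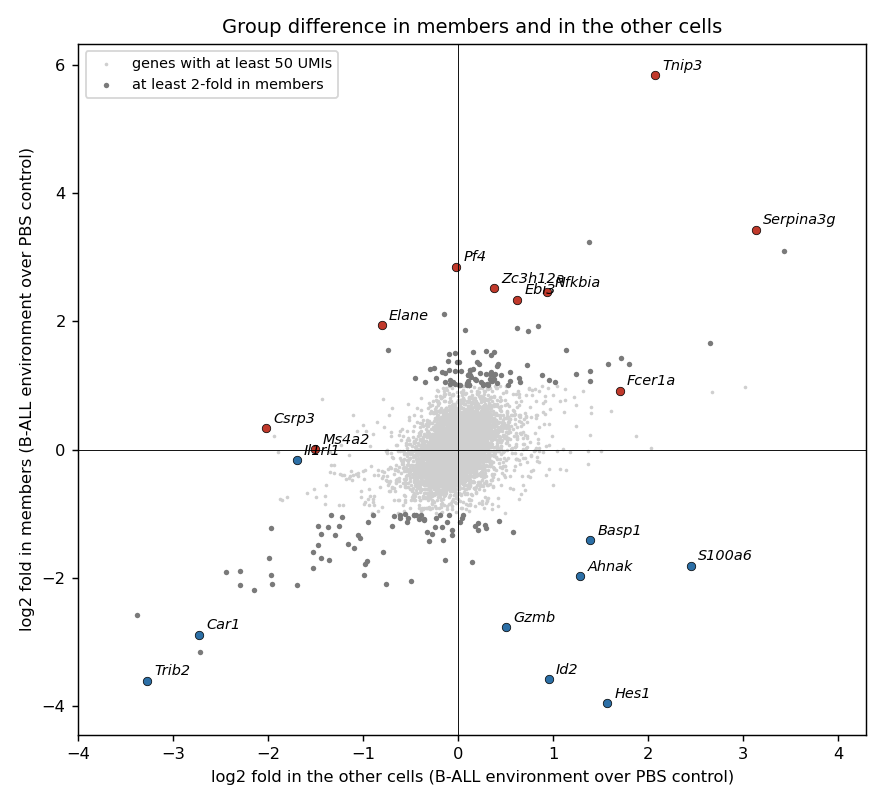
Log2 fold (B-ALL environment over PBS control) in members (vertical) against that in the other cells (horizontal) for 6658 genes with at least 50 UMIs in members. Grey points are genes, darker ones at least 2-fold different in members, and named genes are red when higher and blue when lower in members. Tnip3 lies at 5.83 and Hes1 at -3.95 on the vertical axis, and Hes1, S100a6, Basp1 and Ahnak lie at the lower right, lower in members and higher in the other cells.

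The remaining genes among the 10 highest were Ebi3 (a subunit of IL-27 and IL-35) at 2.34 (1.02 to 4.02), Serpine2 at 2.11 (0.98 to 3.48), and Cavin2, Timp3, Pf4 and Elane. The last 4 rested on few cells. Elane had 908 UMIs in the B-ALL environment, 238 of them in 1 cell, and 117 UMIs in the PBS control, and Pf4 had 277 UMIs in 19 B-ALL environment cells and 19 UMIs in 9 control cells. Without the members rich in Elane or Pf4, the log2 fold of Elane was -0.73 (-1.15 to -0.31), that of Pf4 0.14, that of Cavin2 1.22 and that of Serpine2 1.18 (-0.07 to 2.64, on 25 UMIs in the B-ALL environment and 7 in the control), and Timp3 had 0 UMIs in the B-ALL environment and 3 in the control. The cells were left out by their UMIs of Elane and Pf4, so the fall in the folds of these genes was fixed in advance and supports nothing. Without these cells the folds of Nfkbia, Tnip3, Zc3h12a, Ebi3 and Serpina3g were 2.54, 5.93, 2.71, 2.35 and 3.38.

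The lowest fold was that of Hes1, with 12 UMIs in 5 B-ALL environment cells and 92 UMIs in 15 PBS control cells, a log2 fold of -3.95 (-4.96 to -3.08). Of those 92 UMIs 90 lay in the arm with Gzmb. Trib2, a pseudokinase gene, was lower in both arms, with 8 UMIs in the B-ALL environment and 48 in the control, a log2 fold of -3.60 (-4.89 to -2.51) beside -3.28 in the other cells. Car1, the carbonic anhydrase of early red cells, stood at -2.88 (-3.41 to -2.39) beside -2.72 in the other cells, and AY036118 at -3.15 (-3.44 to -2.88) beside -2.72. Atp1b2 (-2.57) and the histone genes Hist1h3f (-2.18), Hist1h3e (-2.10) and Hist1h4c (-2.10) were lower as well, with folds of -3.39, -2.15, -1.70 and -2.30 in the other cells. Scin stood at -1.84 (-2.10 to -1.59), Gpr183 at -1.96 (-2.41 to -1.53) and Itgb7 at -2.05 (-2.66 to -1.47) over all members. In the arm without Gzmb these 3 stood at -0.39, -0.91 and -1.30.

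Counts of calls differed by arm. In the arm with Gzmb, 49 of 2028 genes (2.42%) were higher in the B-ALL environment and 66 (3.25%) lower, and in the arm without it, 101 of 5863 (1.72%) were higher and 44 (0.75%) lower. Of the 96 genes called higher over all members 66 were at least 2-fold higher in the arm without Gzmb, and of the 81 called lower 38 were at least 2-fold lower there. The difference between the arms was not tested, and the arm with Gzmb rests on 19 cells of the B-ALL environment.

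Cell cycle genes were not called over all members. The 28 tested genes of S phase had a median of 0.27 and the 30 of mitosis a median of 0.34, with Plk1, the polo-like kinase, at 0.91 (0.31 to 1.55) and Ccnb1, cyclin B1, at 0.86 (0.41 to 1.33). In the arm without Gzmb both medians were -0.01. In the arm with Gzmb only 14 of the 30 mitosis genes and 9 of the 30 S phase genes reached 50 UMIs. A scarce gene could reach that number through the group where it was high, so nothing is read from them there. Ccnb1, below 50 UMIs in that arm, had 32 UMIs in the B-ALL environment and 9 in the PBS control.

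Of 7 tested STAT5 and cytokine feedback genes, Pim1, a kinase that cytokine receptors induce, was called higher at 1.33 (1.09 to 1.59) beside 1.58 in the other cells, and Spred2, an inhibitor of RAS signalling, lower at -1.07 (-1.90 to -0.24). The median was -0.36. Of 13 surface and adhesion genes, Cd69 was called higher, at 1.00, and Itgb7 and Cd24a lower, with a median of -0.26. Among lipid mediators 4 genes were tested and 0 called, with Alox5, the 5-lipoxygenase of leukotriene synthesis, at -0.63 (-1.17 to -0.08). Of 3 tested cytokines and chemokines 0 were called, with Csf1 at 0.65 (0.03 to 1.31). Nuclear genes of oxidative phosphorylation, 35 tested, had a median of -0.21, and the 13 mitochondrially encoded genes a median of 0.56, with 0 calls in either list. In the other cells these medians were -0.28 and 0.34. Of 13 cholesterol synthesis genes 0 were called, with a median of 0.06 in members beside 0.45 in the other cells.

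**Figure D5:**
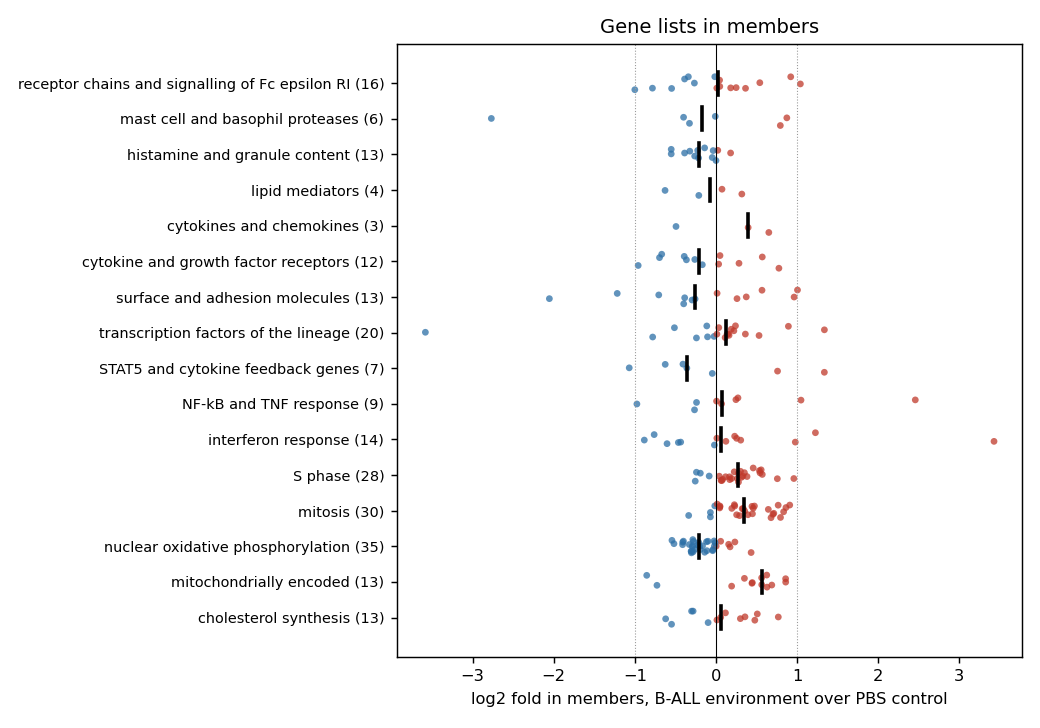
Log2 fold of each tested gene of 16 lists in members, B-ALL environment over PBS control. Points are genes (red above 0, blue below), black bars list medians, dotted lines a 2-fold difference, and the number of tested genes follows each list's name. Most genes lie within the 2-fold lines, with Nfkbia at 2.46, Serpina3g at 3.43, Gzmb at -2.77 and Id2 at -3.58 outside them.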

How the data were processed

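Host KIT+Lin-CD45.2-CD45.1+ marrow cells were measured with the 10x Chromium 3' kit v3. The build was mm10, and Seurat 4.0.1 and Cell Ranger 4 are the tools listed, per the submitters' processing notes. The deposited matrix holds raw UMI counts of 13978 genes in 5882 cells per group (3070 to 48408 UMIs per cell in the PBS control; 190 cells of the B-ALL environment were below 3070). Values in the authors' cell table (group prefix, total count and UMAP score) were used as deposited. The prefix tm was taken to mean the tumor environment.

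Members, lists and arms were chosen with earlier results of these data known. Named genes were the 4 markers, the 10 highest and 10 lowest folds with a mean of at least 20 CPM, up to 4 genes per list, the extremes of members over other cells, and marker lists; arm genes and Basp1 were named after their values were seen. Sums of UMIs per group were TMM-scaled in edgeR 4.0.16 under R 4.3.3, with DESeq2 1.42.0 size factors or library totals as alternatives. Exact 95% conditional and Clopper-Pearson intervals (scipy 1.17.1) cover counting error alone, and 3 UMIs per group served as the floor. The planned edgeR quasi-likelihood test could not be run, as cells carry no sample number. Fold intervals were tested on sums simulated with counting error alone, which does not bear on UMIs clumped in single cells. Scrublet (scanpy 1.11.5) called 3 cells of the B-ALL environment and 6 of the control, so it found almost none; no cell was removed. Cells were thinned to 3070 UMIs with seed 1. Promoters are RefSeq's for GRCm38.p6, and gene spans are GENCODE's. Figures and arithmetic used matplotlib 3.10.9, scikit-learn 1.9.0, scikit-image 0.26.0, pandas 2.3.3, numpy 2.4.6 and python 3.11.15.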

Additional observations from a re-analysis of the deposited data

Results flagged for a closer look

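The 4 genes named here were at least 2-fold lower in members of the B-ALL environment and at least 2-fold higher in its other cells, each against the PBS control. The difference between members and other cells was not tested. Hes1 had a log2 fold of -3.95 (-4.96 to -3.08) in members and 1.57 in the other cells. Ahnak, a large scaffold protein gene, stood at -1.98 (-2.86 to -1.14) in members and 1.29 in the other cells. S100a6, a calcium-binding protein gene, stood at -1.81 (-2.71 to -0.95) in members and 2.45 in the other cells. It had 19 UMIs in members of the B-ALL environment and 33 in those of the control, where 1 cell held 19 and the rest held 14. Basp1 stood at -1.41 (-2.09 to -0.74) in members and 1.39 in the other cells, and at 0.11 (-0.92 to 1.25) in members without Gzmb. In the PBS control, members with Gzmb held 90 of 92 UMIs of Hes1, 37 of 37 of Ahnak, 35 of 46 of Basp1 and 26 of 33 of S100a6, and members with Gzmb were 19 of 117 in the B-ALL environment and 36 of 87 in the control. The part of this make-up in the 4 folds was not tested.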

How the results depend on the processing

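The ratio of shares, 1.39 with the rule as given, was 2.76 among cells with at least 10189 UMIs. It was below 1 for other rules: 0.526 with Ms4a2 and Cpa3, 0.476 with these after thinning, 0.545 with Ms4a2 and Gzmb and 0.617 with Ms4a2 alone, the last 3 chosen after seeing the data. Genes called higher, 96 in all, were 677 with no filter, 32 with a filter of 100 UMIs and 32 after thinning. Genes called lower, 81 in all, were 1180 with no filter, 34 with a filter of 100 UMIs, 32 after thinning, 53 with Ms4a2 and Fcer1a and 44 in members without Gzmb, an alternative chosen after seeing the data. Fewer UMIs or genes enter under the stricter filter and after thinning. With DESeq2 size factors or library totals all 115 tested named genes stayed within their counting intervals. Directions turned for Elane (-0.73 without members rich in Elane or Pf4) and Lat2 (0.0081 after thinning). For Elane this was set in part by the removal, which used its own UMIs. In members without Gzmb, the sign of the fold turned for Id2 (0.42), Ahnak (0.030), Basp1 (0.11) and Fcer1g (0.27). For Ahnak the 0 UMIs of the control were set to the floor of 3 UMIs, and its interval began at -0.61. The intervals of Id2, Ahnak and Basp1 included 0, so their direction there is not known. For Id2, Ahnak, Basp1, Fcer1g and Lat2 the cause was not tested. Medians of S phase and mitosis were 0.27 and 0.34 over all members and -0.01 without Gzmb, and that of cytokine receptors was -0.22 over all members and 0.14 without Gzmb. After thinning, medians turned for granule genes (0.07), cholesterol synthesis (-0.14), lipid mediators (0.50) and IgE receptor signalling (-0.02). With no filter they turned for the interferon list (-0.02), lipid mediators (0.07), cytokines and chemokines (-0.01) and IgE receptor signalling (-0.0026, as with a filter of 100 UMIs). The protease median turned to 0.0038 without Gzmb. Of the 115 genes, 44 left their intervals or turned after thinning. No paired analysis was possible because the cells carry no sample number, and leaving out a sample was not possible for the same reason. Depth limits genes under 50 UMIs, which entered no count of calls apart from those with no filter.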
